A study of Mus musculus with 23 samples.

Results

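Heat shock proteins and their DnaJ cochaperones were followed in the whole brain of adult male C57BL/6J mice whose recipient mothers had received one of 3 diets. The members were all array probes whose gene name begins with Hspa, Hspb, Hsph, Hspd, Hspe, Hsp90, or Dnaj, except Hspbap1 and Hspbp1, whose names point to partners of these proteins. The rule used names and no measured value. It found 71 genes with 101 probes, among 31829 gene names with 39429 probes on the array. By family, there were 12 HSP70 genes, 1 HSP110 gene, 3 HSP90 genes, 8 small heat shock protein genes, 2 chaperonin genes of mitochondria, 4 DNAJA genes, 13 DNAJB genes, and 28 DNAJC genes.

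Embryos of C57BL/6J mice were made by in vitro fertilization and transferred to ICR recipient mothers, which ate the test diet from about a month before the transfer until delivery. The control diet (CD) contained 20% casein and 0.02% folic acid by weight, the protein-restricted diet (PR) 5% casein and 0.02% folic acid, and the protein-restricted diet with added folic acid (FA) 5% casein and 0.1% folic acid. All progenies were born by caesarean section, nursed by ICR foster mothers, fed the CD after weaning, and put through behavioural tests before the brain was frozen at 19 weeks of age. RNA of the whole brain, cerebrum and cerebellum together, was measured for 4 progenies per group with 1 one-colour Agilent array each. The diets thus differed for the mothers and not for the adult progenies, and the sources used here do not say whether mice of a group shared a mother.

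Molecular chaperones of the HSP70 family bind exposed hydrophobic stretches of unfolded proteins and let them go in cycles driven by ATP. DnaJ proteins, also called HSP40, deliver clients to an HSP70 and start its ATP hydrolysis through their J domain, whose loop of histidine, proline, and aspartate is needed for this. HSP110 proteins exchange the nucleotide of HSP70, HSP90 matures kinases and receptors that HSP70 hands over, small heat shock proteins hold unfolded proteins without ATP, and HSP60 with its lid HSP10 folds proteins inside mitochondria. After heat or other protein damage, heat shock factor 1 binds heat shock elements in the promoters of a subset of these genes. In neurons, which do not divide, chaperones are known for the uncoating of clathrin-coated vesicles and for keeping synaptic proteins soluble.

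Values are log2 intensities of the deposited normalized table, and a change is the difference of group means on this scale with its standard error. A probe was called at an adjusted p under 0.05 in limma. Of the 101 member probes, 90 (89.1%) were well above the local background on all 12 arrays, compared with 60.2% of all probes. Another 6 were above it on 1 to 11 arrays, and 5 on none, namely the single probes of Dnajb7, Dnajc5g, and Hspb7 and 1 probe each of Dnajc5 and Dnajc5b. Each diet lay on a slide of its own, and effects of slide cannot be told apart from those of diet in any comparison. The net signal of negative control spots was 28.1 to 34.8 on the CD arrays, 42.7 to 51.2 on the PR arrays, and 39.3 to 47.6 on the FA arrays. A whole brain mixes cell types, and fewer cells of a type cannot be told apart from less RNA per cell. The mean level of 6 pituitary markers, of which 2 were well above background on all arrays, was 7.28 to 7.59 on the CD arrays, 5.23 to 5.57 on the PR arrays, and 4.40 to 6.87 on the FA arrays. Of the pituitary markers, limma called only Gh and Prl, both lower in the PR and the FA group. Gh changed by -5.33 (adjusted p = 0.000549) and -4.62 (adjusted p = 0.00105), and Prl by -4.56 (adjusted p = 0.00562) and -4.25 (adjusted p = 0.00664). Lhb and Pomc, the 2 above background on all arrays, were not called. The mean of 6 markers of ciliated ependymal cells, of which 5 were above background on all arrays, was 8.71 to 8.94, 8.36 to 8.60, and 8.15 to 8.62 on the CD, PR, and FA arrays. The mean of 5 neuron markers was 15.66 to 15.82, 15.76 to 15.81, and 15.74 to 15.82. The means of other marker lists were higher, without overlap with the CD arrays, for oligodendrocytes in both diet groups (13.78 to 13.87, 13.92 to 13.99, and 13.87 to 14.08), for astrocytes on the PR arrays (12.78 to 12.85, 12.86 to 12.94, and 12.81 to 12.89), and for endothelial cells on the FA arrays (9.80 to 9.97, 9.97 to 10.29, and 10.0049 to 10.13). Single markers of the last 2 lists went both ways. Of the astrocyte markers, limma called 2 higher and 1, Aqp4, lower in the PR group (-0.21, adjusted p = 0.0358). Of the endothelial markers, it called 2 higher and 1, Flt1, lower in the FA group (-0.33, adjusted p = 0.00301). The mean of 7 skeletal muscle markers, of which 4 were above background on all arrays, was 5.55 to 5.67, 5.21 to 5.53, and 5.35 to 7.87. The part of these cell type markers in the changes below was not tested.

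The chaperone genes moved in both directions in the PR and the FA group, and the share of them called was near that of all probes. In the PR group, 15 member probes were lower than in the CD group and 13 were higher, beside 16.6% of all probes called lower and 13.4% called higher. In the FA group, 18 member probes were lower than in the CD group and 14 were higher, beside 18.0% and 16.4% of all probes. The share of members called was 27.7% for PR and 31.7% for FA, against 30.0% and 34.4% of all probes. Both comparisons use the same 4 CD arrays. The median change of the members was -0.0014 for PR and -0.037 for FA, beside -0.016 and -0.0061 over all probes.

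Most changes were small. The changes of 101 probes had quartiles of -0.15 and 0.14 in the PR group and of -0.17 and 0.13 in the FA group. No member probe combined a 2-fold change with an adjusted p under 0.0001, limits that 34 of all probes (0.0862%) passed for PR and 77 (0.195%) for FA, whereas 40 and 43 member probes (39.6% and 42.6%, beside 41.1% and 44.4% of all probes) had an unadjusted p under 0.05. The values of the PR and CD groups did not overlap for 29 member probes (28.7%, beside 33.2% of all probes), and those of the FA and CD groups for 32 (31.7%, beside 36.9%). The count of higher calls depended on single arrays. In the PR group it was 6 without PR replicate 4, and in the FA group it was 8 without FA replicate 1 or FA replicate 3 and 9 without FA replicate 4. With each array scaled to its 75th percentile, the split in the FA group was 26 lower and 8 higher.

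**Figure D1:**
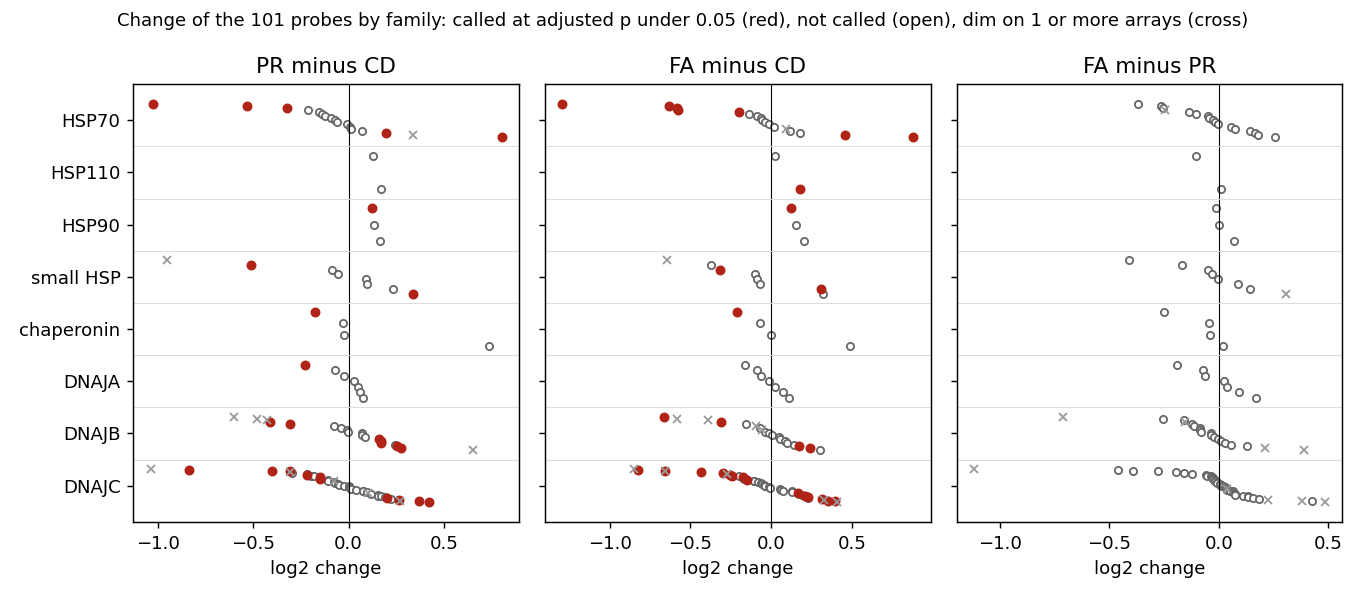
Change on the log2 scale (horizontal axis) of the 101 member probes in the 3 comparisons, grouped by family (vertical axis), with probes called at an adjusted p under 0.05 in red, other probes open, and probes not well above background on 1 or more arrays as crosses. Red points lie on both sides of 0 in PR minus CD and FA minus CD, and there are none in FA minus PR.

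Among the 12 HSP70 genes, 3 of 17 probes were lower and 2 were higher in the PR group, and 5 were lower and 2 higher in the FA group. In either direction, 29.4% and 41.2% of these probes were called, beside 30.0% and 34.4% of all probes. Of the lower probes, 2 for PR and 3 for FA measure the same gene, Hspa4, so these shares count it more than once. The other lower probes were that of Hspa1a for PR, and those of Hspa1a and Hspa12a for FA. The stress-inducible HSP70 of the cytosol, which is nearly absent from many unstressed cells and is the classical target of heat shock factor 1, was measured by 1 probe at chr17:35107117-35107176 (mm9, minus strand). The array annotation gives this probe the transcripts of both Hspa1a and Hspa1b, a pair of almost identical genes, so its signal is that of the pair. Its sequence is shown because the finding rests on this single probe:
Hspa1a: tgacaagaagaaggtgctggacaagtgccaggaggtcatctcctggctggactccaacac

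Hspa1a read 10.39, 10.53, 10.37, and 10.53 in the CD group, 10.31, 10.16, 10.08, and 9.99 in the PR group, and 9.91, 9.83, 9.9966, and 9.79 in the FA group. Every PR and every FA brain lay below every CD brain, and 1 FA value lay above the lowest PR value. The change was -0.32 ± 0.08 in the PR group (adjusted p = 0.00975) and -0.58 ± 0.08 in the FA group (adjusted p = 0.000327), corresponding to 0.80 and 0.67 of the CD level. The calls remained without any single array, with an adjusted p of at most 0.0286 and 0.0014. Between FA and PR the difference of -0.25 did not pass (adjusted p = 0.166).

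Hspa4, a member of the HSP110 branch that acts as a nucleotide exchange factor for HSP70, was lower at 2 of its 3 probes in the PR group and at all 3 in the FA group. The probes lie within chr11:53073347-53075144 (mm9, minus strand). Its brightest probe read 13.94, 13.81, 13.86, and 13.80 in the CD group, 13.49, 13.60, 13.08, and 13.11 in the PR group, and 13.03, 13.34, 13.28, and 13.22 in the FA group. Neither group overlapped with the CD group, and the PR brains fell into a higher and a lower pair. The change was -0.53 ± 0.12 in the PR group (adjusted p = 0.00743) and -0.64 ± 0.12 in the FA group (adjusted p = 0.00239). The probe at chr11:53073594-53073653 had the largest fall of all member probes well above background, -1.03 ± 0.25 in the PR group (adjusted p = 0.0115) and -1.29 ± 0.25 in the FA group (adjusted p = 0.00291). There, too, the PR values were split, with 12.69 and 12.77 in replicates 1 and 2 and 11.65 and 11.69 in replicates 3 and 4, and its spread within groups was larger than that of 97.3% of bright probes. The remaining probe, the most upstream, changed by -0.16 in the PR group (adjusted p = 0.0579) and by -0.20 in the FA group (adjusted p = 0.0191, but up to 0.0548 when CD replicate 1, FA replicate 1, or FA replicate 3 was left out).

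Hspa9, the HSP70 of mitochondria known as mortalin, which pulls imported proteins through the inner membrane, was higher. It read 13.64, 13.60, 13.63, and 13.53 in the CD group, 13.67, 13.80, 13.84, and 13.885 in the PR group, and 14.08, 14.05, 14.06, and 14.03 in the FA group. The groups did not overlap in any of the 3 comparisons, with the CD values lowest and the FA values highest. The change was 0.20 ± 0.05 in the PR group (adjusted p = 0.0139) and 0.45 ± 0.05 in the FA group (adjusted p = 0.000129). With 75th percentile scaling the PR call was lost (adjusted p = 0.135) and the FA call remained. The step from PR to FA was 0.26 (adjusted p = 0.0532), and it passed in 3 of the other fits, with an adjusted p of 0.0361 after normexp background correction, 0.0325 without dim probes, and 0.0295 with a variance trend.

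Hspa8, the constitutive HSP70 of the cytosol that strips clathrin from vesicles, gave different results at its 3 probes. The sequences of its brightest probe, mapped within chr9:40612755-40613050 (mm9, plus strand), and of the probe upstream of it, at chr9:40611142-40611201, are shown because the second was called and the first was not:
Hspa8, brightest: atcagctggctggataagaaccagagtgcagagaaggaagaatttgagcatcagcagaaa
Hspa8, upstream: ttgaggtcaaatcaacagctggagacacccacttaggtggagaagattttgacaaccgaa

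The upstream probe read 13.96, 13.94, 14.16, and 14.07 in the CD group, 14.86, 14.73, 14.77, and 14.98 in the PR group, and 14.96, 14.73, 15.05, and 14.90 in the FA group. No PR or FA value reached down to the CD values. Its change of 0.80 ± 0.08 in the PR group (adjusted p = 9.81e-05) and 0.88 ± 0.08 in the FA group (adjusted p = 7.36e-05) was the largest rise among called member probes. The brightest probe changed by 0.0087 in the PR group (adjusted p = 0.933) and by 0.18 in the FA group (adjusted p = 0.0638). The probe at the downstream end, at chr9:40613223-40613282, changed by -0.12 (adjusted p = 0.565) and 0.017 (adjusted p = 0.944). Which transcripts the upstream probe detects was not tested.

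Of the remaining HSP70 genes, Hspa12a, a distant relative of the family, was lower in the FA group by -0.58 ± 0.11 (adjusted p = 0.00197), with values of 8.28, 8.45, 8.47, and 8.73 against 8.89, 8.96, 9.16, and 9.26 in the CD group. The FA values lay below all CD values. In the PR group its change was -0.21 (adjusted p = 0.154). Hspa5, also called BiP, the HSP70 of the endoplasmic reticulum, changed by 0.07 (adjusted p = 0.471) and -0.07 (adjusted p = 0.49) in the PR and FA groups. Hspa2, Hspa4l, Hspa12b, Hspa13, and Hspa14 were not called in either comparison. The probe of Hspa1l was well above background on 2 of the 4 CD arrays and on all PR and FA arrays, and it was not called.

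**Figure D2:**
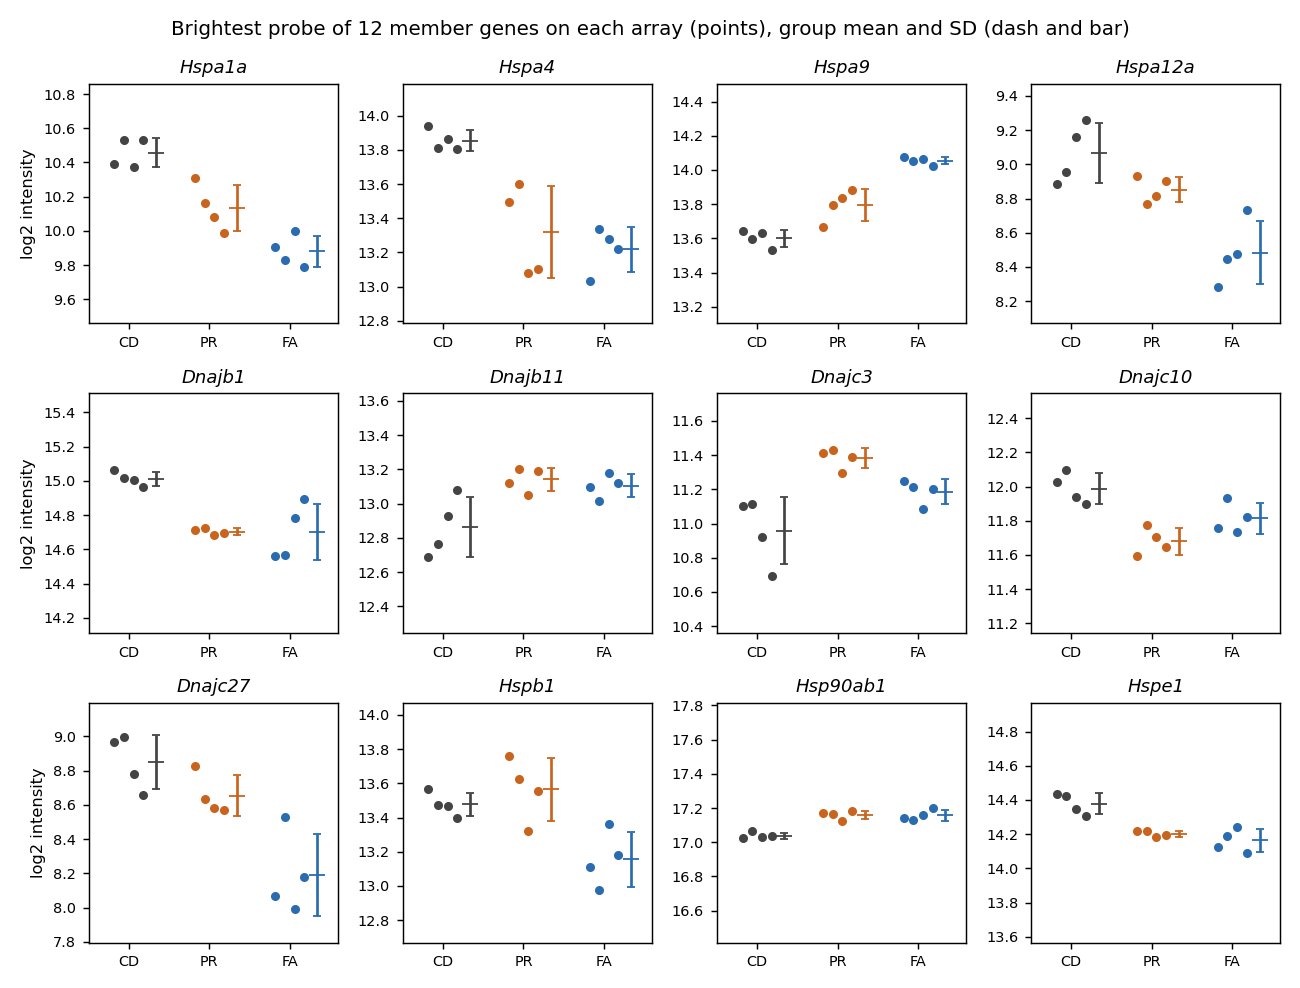
Log2 intensity (vertical axis, with the same span in every panel) of the brightest probe of 12 member genes on each of the 4 arrays of the CD, PR, and FA groups (points), with the group mean and SD (dash and bar). Hspa1a, Hspa4, Dnajb1, and Hspe1 lie lower and Hspa9 and Hsp90ab1 higher in both diet groups, without overlap with the CD group, while Hspa12a, Hspb1, and Dnajc27 are called against the CD group in the FA group and not in the PR group.

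The HSP90 genes differed by little. Hsp90ab1, the constitutive HSP90 of the cytosol, read 17.02 to 17.06 on the CD arrays, 17.12 to 17.18 on the PR arrays, and 17.13 to 17.20 on the FA arrays. The narrow ranges did not overlap with the CD group, and only 0.08% of bright probes had a smaller spread within groups. Its change was 0.12 ± 0.03 in the PR group (adjusted p = 0.0206) and 0.12 ± 0.03 in the FA group (adjusted p = 0.0187). The direction depended on the scaling, with changes of -0.12 and -0.07 after 75th percentile scaling, and the calls were lost without PR replicate 4 (adjusted p = 0.0539) and without FA replicate 4 (adjusted p = 0.0537), respectively. The inducible Hsp90aa1 changed by 0.14 (adjusted p = 0.229) in the PR group and 0.20 (adjusted p = 0.0711) in the FA group, and Hsp90b1, the HSP90 of the endoplasmic reticulum, by 0.16 (adjusted p = 0.0966) and 0.15 (adjusted p = 0.115).

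Hsph1, which encodes HSP110 and is itself induced by heat, read 15.37, 15.39, 15.16, and 15.22 in the CD group and 15.44 to 15.48 in the FA group. The FA values lay above the CD values by a mean of 0.18 ± 0.06 (adjusted p = 0.043), a call that was lost without any of 8 arrays (adjusted p up to 0.111) and after 75th percentile scaling (adjusted p = 0.629). Those 8 were CD replicates 3 and 4, PR replicates 1 and 2, and all 4 FA replicates. In the PR group the same probe changed by 0.17 ± 0.06 (adjusted p = 0.0585), and FA minus PR was 0.0094 (adjusted p = 0.968). The second probe of Hsph1 was not called.

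Among the 8 small heat shock protein genes, 1 was lower and 1 higher in each diet group. This share was below the 30.0% of all probes called for PR and the 34.4% called for FA. Hspb1, or HSP27, which is induced by heat and found in astrocytes and some neurons, read 13.57, 13.47, 13.47, and 13.40 in the CD group, 13.76, 13.62, 13.32, and 13.55 in the PR group, and 13.11, 12.97, 13.36, and 13.18 in the FA group. The FA values lay below the CD values and overlapped with the PR values. The change was -0.32 ± 0.10 in the FA group (adjusted p = 0.0315) and 0.09 ± 0.10 in the PR group (adjusted p = 0.538), and the difference of -0.41 between FA and PR did not pass (adjusted p = 0.101). The FA call was lost without CD replicate 1, 2, or 3 or FA replicate 1, 2, or 4 (adjusted p up to 0.0805).

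Hspb8, which works with the cochaperone BAG3 in the clearance of aggregates, rose by 0.34 ± 0.11 in the PR group (adjusted p = 0.0379) and by 0.31 ± 0.11 in the FA group (adjusted p = 0.0489). These calls were lost without any of 6 arrays in the PR group (adjusted p up to 0.102) and without any of 9 in the FA group (adjusted p up to 0.123). The former were CD replicates 1, 2, and 4, PR replicates 3 and 4, and FA replicate 4, and the latter CD replicates 1, 2, and 4, PR replicates 1, 2, and 3, and FA replicates 1, 3, and 4. Hspb3, known from muscle, read 7.97, 8.55, 7.835, and 7.86 in the CD group and 7.44 to 7.66 in the PR group. It changed by -0.51 ± 0.15 in the PR group (adjusted p = 0.0293, but up to 0.0703 without PR replicate 1, 3, or 4) and by -0.37 in the FA group (adjusted p = 0.0866). Hspb2, Hspb6, Hspb9, and Hspb11 were not called.

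The pair of mitochondrial chaperonin genes lies head to head on chromosome 1. Hspe1, the HSP10 lid, read 14.44, 14.42, 14.34, and 14.31 on the CD arrays, 14.18 to 14.22 on the PR arrays, and 14.09 to 14.24 on the FA arrays. Neither diet group overlapped with the CD group. The change was -0.17 ± 0.05 in the PR group (adjusted p = 0.016) and -0.21 ± 0.05 in the FA group (adjusted p = 0.00488), and it was called without each single array in turn. The other probes of Hspe1 were not called. One of them, at chr1:55148023-55148082 (mm9, plus strand), covers nearly the same bases as the called probe, at chr1:55148026-55148085. The fall of Hspe1 thus rests on 1 probe that its near neighbour did not match with a call. The third probe, with 7.95 to 9.76 in the CD group, had differences of the opposite sign, 0.74 (adjusted p = 0.112) and 0.49 (adjusted p = 0.276). Its spread within groups was above that of 98.5% of bright probes. Hspd1, the HSP60 barrel, changed by -0.02 (adjusted p = 0.674) and -0.0045 (adjusted p = 0.938), with a spread within groups that only 0.59% of bright probes undercut.

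The DNAJA genes, general cochaperones of HSP70, were the family with the smallest changes, with a median size of 0.06 for PR and 0.07 for FA. Of their 7 probes, 1 of Dnaja2 was lower in the PR group (-0.23, adjusted p = 0.00866) while its brighter probe changed by -0.07 (adjusted p = 0.216). In the FA group their changes ran from -0.16 to 0.11, and no unadjusted p in limma was under 0.05. The heat-inducible Dnaja1 changed by 0.06 (adjusted p = 0.434) and -0.015 (adjusted p = 0.853).

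Dnajb1, the main heat-inducible HSP40 of the cytosol and a partner of Hspa1a, was measured at chr8:86135660-86135719 (mm9, plus strand). It read 15.06, 15.01, 15.00, and 14.97 in the CD group, 14.71, 14.73, 14.68, and 14.70 in the PR group, and 14.56, 14.57, 14.79, and 14.89 in the FA group. All PR and FA values lay below the CD values, with PR values close together and FA values in a lower and a higher pair. The change was -0.31 ± 0.07 in the PR group (adjusted p = 0.00887) and -0.31 ± 0.07 in the FA group (adjusted p = 0.0071), and it was called without each single array in turn. Dnajb4, a related heat-inducible cochaperone, was higher in the PR group by 0.17 ± 0.05 (adjusted p = 0.0208, but up to 0.0596 without CD replicate 3, PR replicate 1, or PR replicate 4), with 9.19 to 9.33 against 9.07 to 9.12 in the CD group. In the FA group it changed by 0.05 (adjusted p = 0.45).

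For the 12 genes of the heat-inducible list with a probe, the brightest probe of each was taken. Of these, 3 were lower and 2 higher in the PR group, and 4 were lower and 2 higher in the FA group. In either direction, 5 and 6 of the 12 were called, beside 30.0% and 34.4% of all probes. The lower ones were Hspa1a, Dnajb1, and Hspe1 in both groups and Hspb1 in the FA group. The higher ones were Hsp90ab1 in both groups, Dnajb4 in the PR group, and Hsph1 in the FA group. Hsph1 had a change of nearly the same size in the PR group, 0.17 (adjusted p = 0.0585). The list includes Hsp90ab1 and Hspa8, which are named above as constitutive, and the direction of Hsp90ab1 depended on the scaling. The median change of the 12 was 0.03 for PR and -0.0091 for FA, beside -0.016 and -0.0061 over all probes.

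Among 8 members that reside in the endoplasmic reticulum, 3 were higher and 1 lower in the PR group, and 1 was higher and 1 lower in the FA group. The share called in either direction was above the 30.0% of all probes for PR and below the 34.4% for FA. Dnajc3, or p58IPK, an inhibitor of the kinase PERK and a partner of BiP, read 11.10, 11.12, 10.92, and 10.69 in the CD group, 11.41, 11.43, 11.30, and 11.39 in the PR group, and 11.25, 11.21, 11.08, and 11.20 in the FA group. The PR values lay above both other groups. The change was 0.42 ± 0.09 in the PR group (adjusted p = 0.005) and 0.23 ± 0.09 in the FA group (adjusted p = 0.0681), and the PR call was made without each single array in turn. The difference between FA and PR was -0.20 (adjusted p = 0.349).

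Dnajb11, or ERdj3, another cochaperone of BiP, was higher by 0.28 ± 0.08 in the PR group (adjusted p = 0.0268) and by 0.24 ± 0.08 in the FA group (adjusted p = 0.0435). Its CD values ranged from 12.69 to 13.08, and the highest of them overlapped with the PR values of 13.05 to 13.20 and the FA values of 13.02 to 13.18. The PR call was lost without CD replicate 1 or 2 or PR replicate 2 or 4 (adjusted p up to 0.0701), and the FA call without any array except CD replicate 4 or FA replicate 2 (adjusted p up to 0.107). Both were lost after 75th percentile scaling, with an adjusted p of 0.0652 and 0.106.

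Dnajc10, or ERdj5, a disulfide reductase of the endoplasmic reticulum with a J domain, was lower. Its brightest probe read 12.02, 12.09, 11.94, and 11.90 in the CD group and 11.59, 11.77, 11.71, and 11.64 in the PR group, a change of -0.31 ± 0.06 (adjusted p = 0.00456). In the FA group the change was -0.17 (adjusted p = 0.0535). A dimmer probe upstream, at chr2:80157697-80157756 (mm9, plus strand), read 7.64 to 8.07 on the CD arrays, 6.87 to 7.15 on the PR arrays, and 6.79 to 7.27 on the FA arrays, without overlap with the CD group. There the change was -0.84 ± 0.12 (adjusted p = 0.000526) and -0.82 ± 0.12 (adjusted p = 0.000502). Its sequence is shown because it holds, in capitals, codons for histidine, proline, and aspartate in a row, the tripeptide that marks the J domain:
Dnajc10, upstream: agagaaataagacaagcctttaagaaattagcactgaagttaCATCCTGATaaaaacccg

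Dnajb9, or ERdj4, an inducible member of the same compartment, was the one member gene whose probes were called in opposite directions, which held for the PR group. The brightest probe changed by 0.16 ± 0.05 in the PR group (adjusted p = 0.0403), a call lost without any of 10 arrays (adjusted p up to 0.1) and kept only without CD replicate 1 or PR replicate 2. The other probe, upstream at chr12:45308272-45308331 (mm9, minus strand), read 7.45 to 7.71 on the CD arrays, 7.02 to 7.28 on the PR arrays, and 6.78 to 7.02 on the FA arrays. The 3 groups did not overlap at this probe, and its change of -0.41 ± 0.08 in the PR group (adjusted p = 0.0037) and -0.66 ± 0.08 in the FA group (adjusted p = 0.0002) was called without each single array in turn. Dnajc1 was lower in the FA group by -0.15 ± 0.05 (adjusted p = 0.0434), which was lost without any array except PR replicate 2, FA replicate 1, or FA replicate 4 (adjusted p up to 0.103). Hspa13 was not called.

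Among the mitochondrial cochaperones, Dnajc11, a protein of the complex that shapes the cristae, was higher at both probes in the FA group. Its brightest probe read 10.49, 10.61, 10.56, and 10.52 in the CD group, 10.86, 10.62, 10.64, and 10.69 in the PR group, and 10.84, 10.89, 10.87, and 10.83 in the FA group. Neither diet group overlapped with the CD group. The change was 0.31 ± 0.05 in the FA group (adjusted p = 0.00164) and 0.15 ± 0.05 in the PR group (adjusted p = 0.0551), and at the second probe 0.35 ± 0.07 (adjusted p = 0.003) and 0.37 ± 0.07 (adjusted p = 0.00276). Dnajc15, a cochaperone of the import motor, fell by 0.15 on the log2 scale in the PR group (adjusted p = 0.047), a call kept only without FA replicate 3 and otherwise lost (adjusted p up to 0.117). Dnaja3 and Dnajc19 were not called.

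Among the synaptic and vesicle members, Dnajc5 and Dnajc6 were lower where they were called, whereas Hspa8 was higher at its upstream probe as given above. Dnajc5, the cysteine string protein that keeps the release machinery of synaptic vesicles folded, read 15.32, 15.51, 15.33, and 15.66 in the CD group and 15.21, 15.13, 15.02, and 15.28 in the FA group, without overlap. Its change was -0.30 ± 0.08 in the FA group (adjusted p = 0.0162) and -0.18 ± 0.08 in the PR group (adjusted p = 0.122). The FA call was lost in the methods' Tukey test (adjusted p = 0.0503). A second probe of Dnajc5 was also lower in the FA group (-0.26, adjusted p = 0.0433), but was not called without any of 8 arrays (adjusted p up to 0.113), which were CD replicates 1 to 3, PR replicates 2 and 3, and FA replicates 1, 3, and 4. Another changed by -0.05 (adjusted p = 0.558). Dnajc6, or auxilin, which recruits Hspa8 to clathrin coats in neurons, changed by -0.40 ± 0.14 in the PR group (adjusted p = 0.0466) and by -0.43 ± 0.14 in the FA group (adjusted p = 0.0311). Its values overlapped between groups, with 8.79 to 9.37 on the CD arrays, 8.49 to 8.81 on the PR arrays, and 8.42 to 8.90 on the FA arrays. The calls were lost without any of 9 arrays in the PR group, namely all except CD replicate 4 and FA replicates 2 and 3 (adjusted p up to 0.119), and without CD replicate 1, 2, or 3 or FA replicate 1 or 3 in the FA group (adjusted p up to 0.0844).

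Among the remaining DNAJC genes, Dnajc27, a small GTPase with a J domain, read 8.97, 8.9975, 8.78, and 8.66 in the CD group, 8.83, 8.63, 8.58, and 8.57 in the PR group, and 8.07, 8.53, 7.99, and 8.18 in the FA group. The FA values lay below those of both other groups. The change was -0.66 ± 0.12 in the FA group (adjusted p = 0.00223) and -0.20 ± 0.12 in the PR group (adjusted p = 0.247), with a difference of -0.46 between FA and PR (adjusted p = 0.122). Dnajc8, a spliceosome-associated protein, was higher in the FA group by 0.23 ± 0.05 at its brightest probe (adjusted p = 0.00758) and by 0.40 ± 0.07 at a second one (adjusted p = 0.00151). In the PR group the second probe was also higher, by 0.26 ± 0.07 (adjusted p = 0.0155, but 0.0738 after normexp background correction). The brightest probe changed by 0.12 there (adjusted p = 0.126). Dnajc2, a cochaperone bound to ribosomes that acts on nascent chains, was higher by 0.20 ± 0.06 in the PR group (adjusted p = 0.0287) and 0.21 ± 0.06 in the FA group (adjusted p = 0.0216). Its calls were lost in the PR group without CD replicate 1 or 2 or PR replicate 2, 3, or 4 (adjusted p up to 0.0739), and in the FA group without CD replicate 1 or 2 or FA replicate 1, 2, or 3 (adjusted p up to 0.0582). Dnajc4 was lower by -0.22 (adjusted p = 0.0146) and -0.24 (adjusted p = 0.00699). In total, 7 of 41 DNAJC probes were lower and 4 higher in the PR group, and 9 were lower and 7 higher in the FA group. These counts include Dnajc5b, called lower in both groups, and Dnajc5g, called higher in the FA group, at probes that were not well above background on any array. In either direction, 26.8% and 39.0% of the DNAJC probes were called, beside 30.0% and 34.4% of all probes.

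The probes of a gene often differed. Dnajb6, which keeps aggregation-prone proteins soluble, was higher in the PR group at 2 probes (0.26, adjusted p = 0.00871, and 0.17, adjusted p = 0.0317), while its brightest probe changed by -0.0088 (adjusted p = 0.923). Of 22 member genes with more than 1 probe, all probes were called in 2 genes, some in 9, and none in 11 in the PR group. In the FA group the numbers were 2, 11, and 9. For 20 of these genes, the most upstream and the most downstream probe were well above background on all arrays and could be ordered along the strand. The change at the upstream probe minus that at the downstream probe had a median of 0.04 for PR and -0.0083 for FA for the members, and of 0.04 and 0.03 for 4011 genes of the whole array. For FA minus PR the median was -0.10 for the members, with the upstream probe lower in 16 of 20 genes (80.0%), and -0.02 for all genes, with it lower in 55.3%. This difference was not tested. The differences ran both ways, from 0.93 and 0.86 for Hspa8 to -0.57 and -0.80 for Dnajb9. Transcript models of the mm9 build were not used here, so that probes were not assigned to exons or isoforms.

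**Figure D3:**
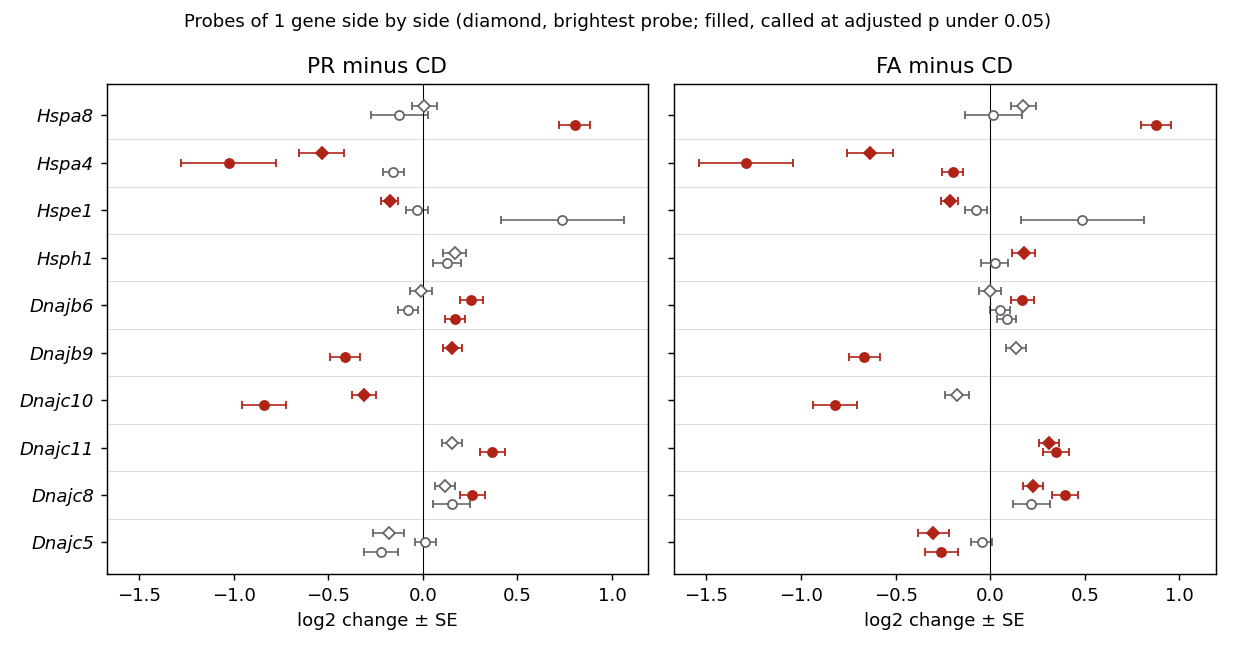
Change on the log2 scale with its standard error (horizontal axis) of each probe well above background on all arrays for 10 member genes (vertical axis), in PR minus CD and FA minus CD, with the brightest probe as a diamond and called probes filled. The probes of Hspa8, Dnajb9, and Dnajb6 disagree in size or direction, while those of Hspa4 and Dnajc11 lie on 1 side of 0.

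By their stated contents of casein and folic acid, the FA and the PR diet differed in folic acid alone. No member probe was called between these groups by limma or by the methods' Tukey test, beside 0.386% of all probes called lower and 0.228% called higher by limma. An unadjusted p under 0.05 was reached by 20 of 101 member probes (19.8%, beside 14.1% of all probes). Among probes well above background on all arrays, the share was 21.1% of the members and 17.4% of all. The values of both groups did not overlap for 18 member probes (17.8%, beside 11.1% of all probes), and among probes well above background on all arrays the shares were 16.7% and 14.9%. The median change was -0.01, and among probes well above background on all arrays the changes ran from -0.46 for Dnajc27 to 0.42 for a second probe of Dnajc14. Hspa12a changed by -0.37 (adjusted p = 0.147), and the values of Hspa9, Hspb1, and Hspa1a between these groups are given above.

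Between mice of 1 group, the members varied about as much as other genes. The median standard deviation within groups was 0.09 for the 90 bright member probes and 0.10 for all bright probes. Inducible chaperones can rise together in a stressed animal. The deviation of Hspa1a from its group mean was therefore compared with that of 11 other genes of the heat-inducible list over the 12 arrays. None of the 11 relations passed, with an adjusted p of 0.726 at the smallest in an exact permutation test within groups, two-sided. The extremes were Hspb1 (r = 0.49, rho = 0.31) and Hspa8 (r = -0.42, rho = -0.48, adjusted p = 0.861 for both rho values). Without PR replicates 1 and 4, which lay farthest from the median of Hspa1a, r was 0.37 and -0.12, respectively, and that of Dnajb4 changed from 0.35 to 0.68.

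Promoter windows of RefSeq (GRCm38.p6, 250 bases before to 50 after a gene's start) were found for 57 of the 71 members and for Hspa1b. A heat shock element consists of inverted units of GAA, and it was searched as the pairs GAANNTTC and TTCNNGAA, which read the same on both strands, and as GAANNTTCNNGAA and TTCNNGAANNTTC for 3 units. A pair was found in 18 of the 75 windows of the members and Hspa1b (24.0%) and in 15.1% of all 32851 windows. Units of 3, which contain a pair, were found in 6 (8.0%) and in 0.603% of all windows, namely those of Hspd1, Hspe1, Dnajb6, and Hsph1. The 200 bases before the start are shown for inducible members that hold a pair there and differ in their change, with the units in capitals:
Hspa1a, chr17:34972157-34972356, minus strand: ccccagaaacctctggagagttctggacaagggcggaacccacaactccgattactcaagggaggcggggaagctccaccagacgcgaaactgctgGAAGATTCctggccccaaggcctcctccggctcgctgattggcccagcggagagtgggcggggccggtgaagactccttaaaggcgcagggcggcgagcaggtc
Hspb1, chr5:135887719-135887918, plus strand: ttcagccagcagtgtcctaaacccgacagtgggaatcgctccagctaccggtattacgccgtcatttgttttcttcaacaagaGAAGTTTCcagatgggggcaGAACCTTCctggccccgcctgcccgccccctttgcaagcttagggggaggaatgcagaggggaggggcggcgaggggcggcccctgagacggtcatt
Hspe1, chr1:55087948-55088147, plus strand: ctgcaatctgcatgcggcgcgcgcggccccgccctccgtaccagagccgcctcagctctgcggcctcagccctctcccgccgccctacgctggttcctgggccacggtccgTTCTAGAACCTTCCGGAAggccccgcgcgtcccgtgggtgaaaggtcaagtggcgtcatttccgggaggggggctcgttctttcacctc
Hsph1, chr5:149636316-149636515, minus strand: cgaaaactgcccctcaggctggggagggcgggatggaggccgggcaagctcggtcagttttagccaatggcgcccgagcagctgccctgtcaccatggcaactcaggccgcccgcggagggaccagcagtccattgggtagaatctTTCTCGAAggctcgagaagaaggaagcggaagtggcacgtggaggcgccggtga

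The stretch in the Hspe1 promoter, with pairs that overlap, also lies in the window of Hspd1 on the other strand. The 4 genes thus shown were called lower in both groups (Hspa1a and Hspe1), lower in the FA group (Hspb1), and higher in the FA group (Hsph1). Of the 15 members whose window held a pair, 4 were lower and 2 higher in the PR group, and 4 lower and 3 higher in the FA group, with medians of -0.02 and -0.09. Of the 42 members whose window held none, among them Dnajb1, 5 were lower and 3 higher in the PR group, and 6 lower and 3 higher in the FA group, with medians of 0.0090 and -0.04. Over all probes, 30.0% were called in either direction for PR and 34.4% for FA. The counts of windows and of calls by window are a description of letters in these windows and were not tested.

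Among the partners of these chaperones, the subunits of the cytosolic chaperonin TRiC and of prefoldin, which hands actin and tubulin to it, were the list with the largest share of calls. Of 13 genes, 7 were higher and 1 lower in the PR group and 8 higher in the FA group, beside 30.0% and 34.4% of all probes called in either direction. The medians were 0.13 and 0.19, beside -0.016 and -0.0061 over all probes. Tcp1 was higher by 0.35 ± 0.05 in both the PR group (adjusted p = 0.000505) and the FA group (adjusted p = 0.000423). Cct6a was higher by 0.46 (adjusted p = 0.000539) and 0.51 (adjusted p = 0.000256), and Cct4 by 0.40 (adjusted p = 0.000676) and 0.47 (adjusted p = 0.000229). Cct5, Cct7, and Cct8 of the same ring changed by between -0.03 and 0.04 and were not called, and Pfdn5 was lower in the PR group (-0.20, adjusted p = 0.026).

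Of the 5 genes of the heat shock factors, Hsf2 was lower by -0.36 ± 0.09 in the PR group (adjusted p = 0.0136) and by -0.39 ± 0.09 in the FA group (adjusted p = 0.00774). Hsf1 itself, the main activator after heat, changed by 0.20 (adjusted p = 0.059) and 0.06 (adjusted p = 0.555), and Hsf5 was higher in the FA group (0.44, adjusted p = 0.00631). Of 16 cochaperones and exchange factors of HSP70 with a probe, 3 were higher and 1 lower in each diet group. This share was below the 30.0% of all probes called for PR and the 34.4% called for FA. The higher genes in the PR group include Hspbap1, whose probe was well above background on 1 of 12 arrays. Sgtb, a neuronal cochaperone, rose by 0.36 (adjusted p = 0.000705) and 0.21 (adjusted p = 0.0108), and Sil1, the exchange factor of BiP, changed by -0.26 (adjusted p = 0.00802) and -0.19 (adjusted p = 0.0282). Of 13 HSP90 cochaperones, 3 were higher and 1 lower in the PR group and 2 higher and 1 lower in the FA group. Their shares called were 30.8% and 23.1%, beside 30.0% and 34.4% of all probes. Ttc4 rose by 0.33 (adjusted p = 0.000417) and 0.50 (adjusted p = 7.23e-05), and Ptges3, or p23, changed by -0.17 (adjusted p = 0.00631) and -0.18 (adjusted p = 0.0033).

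Of 16 genes of the unfolded protein response and of folding in the endoplasmic reticulum, 3 were higher and 1 lower in the PR group. In the FA group, 1 was higher and 3 lower. The share called was below the 30.0% of all probes for PR and the 34.4% for FA. Atf6, a sensor of the unfolded protein response, was higher in both groups (0.29, adjusted p = 0.0133, and 0.32, adjusted p = 0.00686). Its sensor Eif2ak3, or PERK, was lower in both (-0.19, adjusted p = 0.0366, and -0.27, adjusted p = 0.00579). Ddit3, or CHOP, an effector of strong stress, was called in neither (0.18, adjusted p = 0.0515, and 0.12, adjusted p = 0.182). Of the alpha-crystallins, Cryaa was higher in both groups (0.40, adjusted p = 0.0238, and 0.33, adjusted p = 0.0466) and Cryab in neither. Cirbp, an RNA-binding protein induced by mild cold, was lower in the PR group (-0.38, adjusted p = 0.00558), and Rbm3 was not called.

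**Figure D4:**
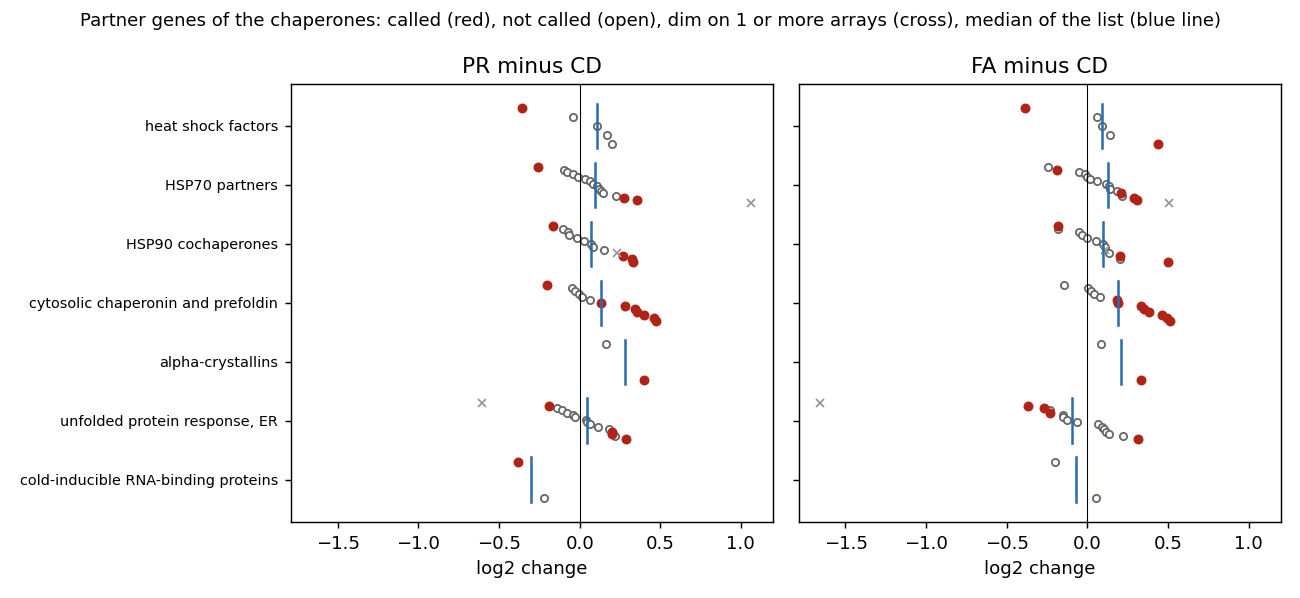
Change on the log2 scale (horizontal axis) of the brightest probe of each gene in 7 lists of chaperone partners (vertical axis), in PR minus CD and FA minus CD, with called genes in red, other genes open, genes not well above background on all arrays as crosses, and the median of each list as a blue line. In the chaperonin and prefoldin list, 7 red points in PR minus CD and 8 in FA minus CD lie to the right of 0.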

How the data were processed

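Total RNA of 12 whole brains was hybridized to one-colour Agilent arrays, 1 array per mouse and 4 per diet, and scanned spots were read with Agilent Feature Extraction 11.0.1.1. The authors deposited normalized intensities on a linear scale, made by qspline normalization according to the study's methods, and the scanner intensities from which these came. The probes are placed on mm9 in the file headers. The promoter methylation arrays of the series were not analysed here. The number of arrays limits the precision. The p-values set a difference between groups against the spread between arrays within groups, with 1 array per mouse. They take no account of differences between slides, nor of mothers that mice of a group may have shared.

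The deposited intensities were converted to log2. One limma model (version 3.58.1, with lmFit, contrasts.fit, and eBayes, in R 4.3.3) held all 3 groups. Tests were two-sided, with Benjamini-Hochberg adjustment over all 39429 probes of a comparison, and a probe was called at an adjusted p under 0.05. A probe counted as well above background on an array by the scanner's own mark. A gene with several probes was represented by its brightest. Named genes were those of the heat-inducible, endoplasmic reticulum, mitochondrial, and synaptic lists, the 5 largest rises and falls called in each comparison, and any member called between FA and PR, beside other probes that differ in call or direction. Dnajc4, Dnajb6, Dnaja2, Dnajc5b, and the partner genes named were chosen after their values were seen. The members and lists were chosen with earlier results of these data known. Relations between genes over arrays were to start from Hspa1b, which has no probe of its own, so the probe shared by Hspa1a and Hspa1b was used.

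Alternatives were 75th percentile scaling, quantile normalization, and normexp background correction (offset 50), removal of dim probes, a variance trend with robust estimation, the replicate number as a block, fits of only 2 groups, the methods' Tukey test, stricter limits, 1 probe per gene, and leaving out each array. On data simulated for PR minus CD over 39429 probes with 200 changed, 49.0% of log2 changes of 0.5 and 68.0% of those of 1 were recovered, with 8 false calls. In the real comparison 30.0% of all probes were called, far more than were changed there. The adjustment depends on that share, so these rates do not give the recovery in the real comparisons. Promoter windows came from RefSeq (GRCm38.p6), and figures and correlations were made in Python 3.11.15.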

Additional observations from a re-analysis of the deposited data

Results flagged for a closer look

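In 4 of 153 groups of 4 arrays, 1 array stood apart from the other 3 by Dixon's criterion, which chance reaches in about 1 in 20 groups. Dnajb9 at its brightest probe was highest in FA replicate 1 (11.95, nearest 11.92, a gap of 0.836 of the range). Dnajc8 at its brightest probe was lowest in PR replicate 2 (12.56, nearest 12.59, gap 0.835). Hspa5 was lowest in CD replicate 4 (15.22, nearest 15.40, gap 0.887). Dnajc5 at a dimmer probe was lowest in FA replicate 1 (8.50, nearest 8.72, gap 0.832).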

How the results depend on the processing

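The genes named by rule had 48 calls on single probes against the CD group. Of these, 26 kept their direction and call in all of 20 other fits, and 29 did so whenever 1 array was left out. The 20 fits were 8 settings and 12 with 1 array left out, and they did not include the stricter limits or 1 probe per gene. Hsp90ab1 reversed after 75th percentile scaling, to -0.1167 for PR and -0.0708 for FA, where the median of all probes was -0.04 and -0.06. Limits of at least 2-fold and an adjusted p under 0.0001 left 0 member probes lower or higher in either diet group. Higher calls in the PR group numbered 8 by the Tukey test and 8 with 1 probe per gene, and in the FA group 8 by the Tukey test and 8 after 75th percentile scaling. The Tukey test ended the calls of Dnajb11, Dnajc2, Dnajc6, and Hspb8 in both groups, of Dnajb9 (brightest probe), Dnajc15, and Hspb3 in the PR group, and of Dnajc1, Dnajc5, Hspb1, and Hsph1 in the FA group, with an adjusted p of 0.0503 to 0.148. Between FA and PR, 1 probe, that of Hspa9, was higher after normexp correction, without dim probes, and with a variance trend. Leaving out 1 array gave 11 to 17 lower and 6 to 14 higher calls in the PR group, 13 to 21 lower and 8 to 14 higher calls in the FA group, and 0 to 1 higher calls between FA and PR, the 1 being Dnajc5g, below background, without PR replicate 4. The median change of the members in the PR group was -0.0399 after 75th percentile scaling and -0.0185 to -0.0014 when 1 array was left out. In the FA group it was -0.0668 after 75th percentile scaling, -0.0202 after quantile normalization, -0.0109 after normexp correction, -0.0148 without dim probes, -0.015 with 1 probe per gene, and -0.0372 to -0.0106 when 1 array was left out, and between FA and PR it was -0.0115 to 0.0034. The cause of these shifts was not tested. Over all probes, lower calls made up 44.2% of the PR calls after normexp correction instead of 55.3%. Replicate numbers did not pair the arrays, since deviations of same-numbered arrays correlated at -0.06 to 0.20. With the replicate block, 15 member probes were lower and 12 higher for PR, 17 and 13 for FA, and 0 between FA and PR. Probes near background, 11 of 101, limit what is known of those members.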
